A study of Canis lupus familiaris with 6 samples.

Results

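The genes described here were known in these dogs only from the reads themselves. They are rows of the deposited expression table that carry a serial number given by transcript assembly in place of an Ensembl dog gene identifier. They were selected on their measured level, as assembly-only genes whose FPKM, averaged across the 6 blood libraries, was 1 or more. FPKM is the number of fragments per kilobase of transcript scaled to a size set for each library. Of 561 assembly-only genes in the table, 396 passed, and they made up 396 of the 9847 genes at that level among 31512 rows. Each is named below by its serial number, as in assembly gene 445, with its position on the Ensembl release 100 dog genome. The level chose the members, so their levels are given as a description and only the difference between diets was tested.

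A transcript assembler joins overlapping aligned reads into transcript models and reports those that match no annotated gene. Such models can be whole genes missing from an annotation, single exons or untranslated ends of a known gene, antisense or promoter-linked RNA, or copies of mobile elements. Whole blood RNA is dominated by globin transcripts of red cells and reticulocytes, with leukocyte and platelet transcripts beside them.

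The libraries came from whole blood of Beagle dogs aged 1.5 years, collected on day 30 of feeding. The control group of 3 dogs was fed a plain snack of 30 g, and the CPP-Se group of 3 dogs the same amount of snack holding 0.03% CPP-Se, in which selenium is chelated by casein phosphopeptide. Each dog gave 1 library, and neither sex nor litter was given for the sequenced dogs, so the p-values measure the spread between these 6 animals. The question asked here of the data was which unannotated transcripts blood of these dogs holds and whether they differed with the supplement.

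Recovered reads on genes ranged from 6598173 to 8067034 per library. Hemoglobin genes took 48.7% to 55.9% of them in 5 libraries and 36.6% in CPP-Se replicate 2. The FPKM scale of that dog corresponded to 1.65 times its reads on genes, against 0.882 to 1.05 times in the others, so 1 read weighs least there. In control replicate 2 and CPP-Se replicates 1 and 3 the scale was below the reads on genes, so it was not a plain total of mapped fragments. Blood markers were present and markers not expected in blood summed to at most 0.0503 FPKM, with COL1A1 and INS at 0 in all dogs. The summed markers of neutrophils were 1400 to 1890 FPKM in control dogs and 777 to 1110 FPKM in CPP-Se dogs, with 4 of 4 tested markers lower. Monocyte markers summed to 485 to 691 FPKM against 194 to 286 FPKM, with 3 of 3 lower. T cell markers summed to 56.4 to 101 FPKM against 126 to 174 FPKM, with 4 of 4 higher, and B cell markers to 267 to 386 FPKM against 394 to 448 FPKM, with 5 of 5 higher. Cytotoxic cell markers summed to 4.99 to 9.13 FPKM against 14.3 to 20.8 FPKM, with 2 of 2 tested higher. Red cell and platelet sums overlapped between the groups. No marker in these lists was called by limma, and their part in the results below was not tested. In bulk blood, fewer cells of a type and less RNA per cell cannot be told apart.

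No member overlapped the span of an annotated gene on either strand. Of the 396 members, 378 lay on 39 chromosomes and 18 on 17 unplaced scaffolds, with most on chromosome 1 (29 members), chromosome 10 (24) and chromosome 18 (21). The distance to the nearest annotated gene had a median of 2623 bases, counted as the bases between the models, and ran from 0 bases in 1 member that abuts a gene to 149761 bases among the 391 members that share a chromosome or scaffold with one. Within 5000 bases of a gene lay 237 members. Of these, 85 were on the same strand as that gene, 47 upstream and 38 downstream of it. The other 152 were on the opposite strand, 104 upstream and 48 downstream. A further 154 members were more than 5000 bases from any annotated gene, and 5 sat on a scaffold that holds none. In 55 members the transcript length equalled the genomic span, as in a single block, and 341 members had a span longer than their transcript, as in a spliced model. Among the members themselves 4 pairs overlapped each other, 1 of them on the same strand.

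The members were short and thinly covered. Their median length was 688 bases, against 1830 bases for all genes tested, and their median support was 13.3 reads per dog, against 80.7. In 164 members the mean was under 10 reads per dog, and 115 members were at 0 in at least 1 dog. The median SD within a group, on the log2(FPKM + 1) scale, was 0.571 for members and 0.308 for all genes tested, and it was 0.48 for the 232 members with at least 10 reads. A protein name or domain was given for 111 members, 28 of them with a Pfam domain, and 285 had neither. The file carries the same protein name on an annotated gene for 65 of the 111, and for 46 no annotated gene has it.

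Levels spanned almost 3 orders of magnitude, from the selection limit to 852 FPKM. Only 6 members exceeded 100 FPKM and 49 reached 10 FPKM, while 162 lay between 1 and 2 FPKM. The 10 highest held 28.9% to 42.2% of all member reads, lowest in CPP-Se replicate 2. At the limit, assembly genes 433, 24 and 293 entered with means of 1.007, 1.007 and 1.009 FPKM, and assembly genes 225, 291 and 321 stayed out with 0.998, 0.985 and 0.978 FPKM.

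**Figure D1:**
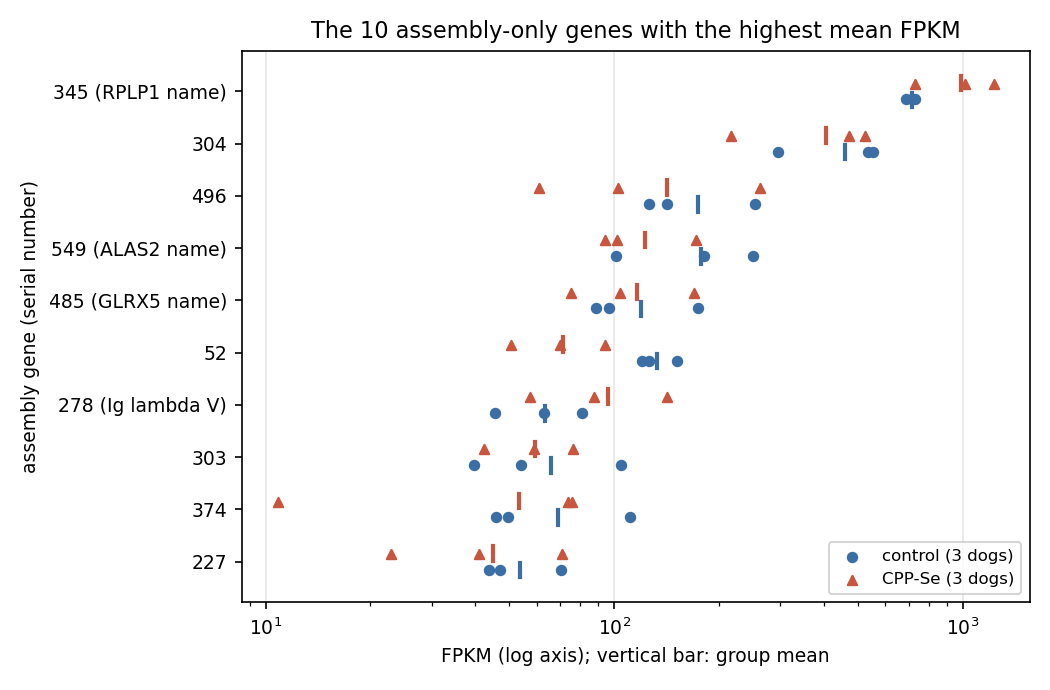
FPKM on a log axis for the 10 members with the highest mean, 1 point per dog, circles for the 3 control dogs and triangles for the 3 CPP-Se dogs, with a bar at each group mean. The groups overlap for 9 of the 10, and for assembly gene 52 all CPP-Se dogs lie below all control dogs.

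The most abundant member carried the name of a ribosomal protein. Assembly gene 345 (chromosome 30, 33344470 to 33346574, plus strand) matched RPLP1, an acidic protein of the stalk of the large ribosomal subunit. It measured 732, 718 and 690 FPKM in control dogs and 1229, 730 and 1013 FPKM in CPP-Se dogs. The groups overlapped, because CPP-Se replicate 2 lay within the control values. Its nearest annotated gene, 7047 bases away, was KIF23, a mitotic kinesin at 1.11 FPKM. The other ribosomal members followed the same order of group means with overlap. Assembly gene 505, matched to RPL38, measured 11.1, 8.60 and 16.8 FPKM against 21.1, 8.23 and 24.8 FPKM, and assembly gene 153, matched to RPL9, averaged 1.20 FPKM. None of the 3 passed an unadjusted p of 0.05 in limma. Annotated genes of the same names exist elsewhere in the file, and such families are rich in near-identical copies, so the split of reads among them is uncertain.

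Both members that matched iron and heme enzymes were among the 5 highest. Assembly gene 549 (chromosome X, 46777018 to 46782555, plus strand) matched ALAS2, the erythroid enzyme of the first step of heme synthesis. It measured 181, 251 and 101 FPKM in control dogs and 94.5, 102 and 172 FPKM in CPP-Se dogs. Annotated ALAS2 lies 53488 bases away on the opposite strand at a mean of 1621 FPKM, and was above the member in every dog. Control replicate 3 was the lowest control dog for the member as for the gene, at 101 and 1085 FPKM. In the CPP-Se group the lowest dogs differed. The member was lowest in replicate 1, where annotated ALAS2 measured 1737 FPKM, and annotated ALAS2 was lowest in replicate 2, at 883 FPKM. Assembly gene 485 (chromosome 8, 64385381 to 64392905, plus strand) matched GLRX5, which serves mitochondrial iron-sulfur cluster assembly. It measured 88.5, 174 and 96.7 FPKM in control dogs and 104, 75.0 and 169 FPKM in CPP-Se dogs. The annotated GLRX5 model ends 1539 bases upstream on the same strand and averaged 8.36 FPKM, so here the unannotated model held the larger level in 6 of 6 dogs. Neither member differed between diets beyond the spread of dogs, with log2 differences of -0.49 ± 0.38 (SE) and -0.06 ± 0.37 and adjusted p of 0.571 and 0.958 in limma.

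Counting beyond these, 35 of the 111 described members had an annotated gene of the same protein name within 100000 bases. They were on the same strand in 31 pairs. The member had the higher mean FPKM in 18 pairs and was higher in all 6 dogs in 8 of them. In 8 pairs the annotated gene was itself under 1 FPKM. Members had to reach 1 FPKM and annotated genes did not, so in those 8 pairs the selection fixed the member as the higher. RNH1, a ribonuclease inhibitor, showed the opposite order to GLRX5, with 84.9 FPKM for the gene and 14.0 FPKM for assembly gene 173, which lies 701 bases from it. PEF1, a calcium-binding protein, averaged 41.0 FPKM and its namesake, assembly gene 192, 6.28 FPKM. ZBP1, a sensor of Z-form nucleic acid, averaged 15.5 FPKM beside 13.5 FPKM in assembly gene 255. Members matched to RNH1, PEF1 and ZBP1 were named after their values were seen. FPKM is scaled by length, so the model with the higher FPKM need not hold more reads. Assembly gene 485 averaged 913 reads beside 36.5 for GLRX5. By contrast assembly gene 560, higher than GAB3 in FPKM in all 6 dogs, averaged 17.2 reads beside 32.7.

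**Figure D2:**
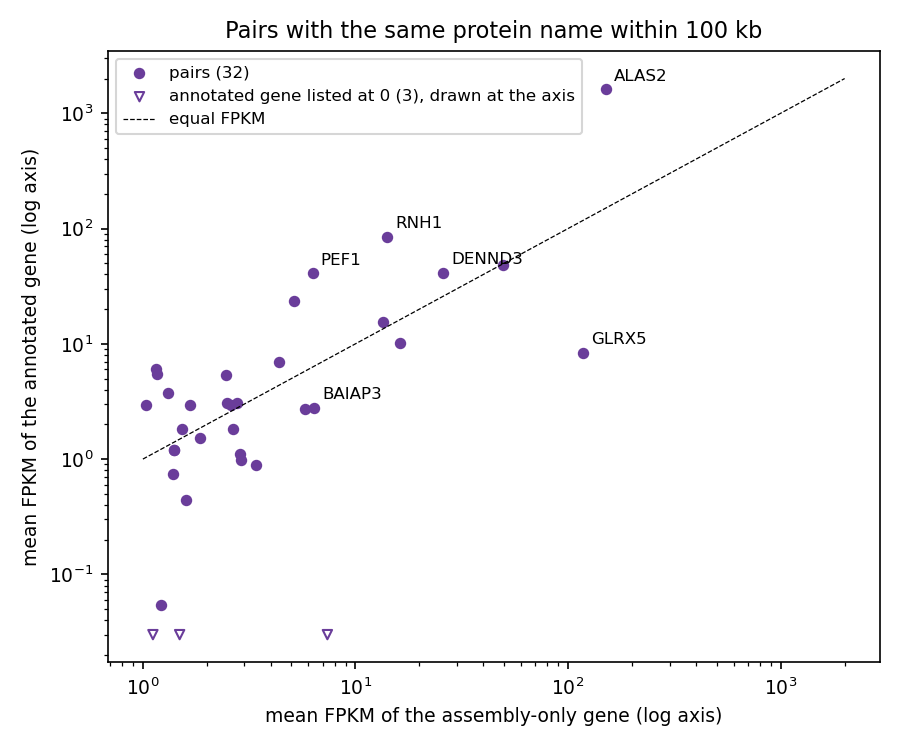
Mean FPKM over 6 dogs of each described member (horizontal log axis) and of the annotated gene with the same protein name within 100000 bases (vertical log axis), with a dashed line at equal level. ALAS2 lies far above the line and GLRX5 far below it. In 3 pairs the annotated gene is listed at 0 in all dogs and is drawn as an open triangle at the lower edge.

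The same protein name stood on 2 or more members in 9 cases, 24 members in all, some of them neighbours on 1 chromosome and some, as with the LINE element and envelope names, on different chromosomes. Obscurin, a giant protein of the muscle sarcomere, was named for the neighbouring assembly genes 113, 114 and 115 on chromosome 14, between 666028 and 674695. Together they held 28, 8 and 14 reads in control dogs and 34, 84 and 24 reads in CPP-Se dogs. Those sums overlapped, because control replicate 1 exceeded CPP-Se replicate 3. Assembly gene 113 alone measured 1.68, 0 and 1.43 FPKM against 2.99, 6.90 and 2.50 FPKM, without overlap, from no more than 24 reads in any dog.

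Antibody light chain genes formed the largest named cluster. Immunoglobulin lambda variable segments supply the antigen-binding part of lambda light chains, which B cells and plasma cells make. The 7 lambda members, assembly genes 274 to 280, lay on chromosome 26 between 26019682 and 27599344, all on the plus strand. Summed over them, control dogs held 187, 113 and 233 FPKM and CPP-Se dogs 161, 262 and 99.1 FPKM. Of the 7, assembly gene 280 matched a lambda-like polypeptide and the others variable segments. Both the highest and the lowest dog were in the CPP-Se group. Assembly gene 278 measured 63.0, 45.7 and 81.1 FPKM against 87.8, 142 and 57.6 FPKM, whereas assembly gene 279 measured 66.0, 35.3 and 75.6 FPKM against 50.6, 57.0 and 11.1 FPKM. These 2 segments thus ranked the dogs differently, and in assembly gene 276, picked for its range, the reads ran from 1 in CPP-Se replicate 3 to 45 in control replicate 3. None of the 7 passed an unadjusted p of 0.05 in limma. The file names 45 annotated rows with the variable segment name that 4 of these members carry, so reads may be shared among near-identical segments. B cell markers, which do not include lambda genes, were higher in all CPP-Se dogs as given above.

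Between the diets no member was called by limma with all 6 dogs. Limma on log2(FPKM + 1), fitted over all 9847 genes with Benjamini-Hochberg adjustment, called 0 of 396 members at an adjusted p under 0.05 and a fold of at least 1.5, where 0.0305% of all genes tested were called (3 genes). The lowest adjusted p of a member was 0.138. In 82 members 1 group had a mean under 1 FPKM, so that they passed the selection through the group where they were higher, and 28 of these had an unadjusted p under 0.05. The counts that follow include them. An unadjusted p under 0.05 was reached by 77 members (19.4%), against 16.0% of all genes tested. Of these, 34 were higher in the CPP-Se group (8.59% of members against 6.87% of all genes) and 43 lower (10.9% against 9.10%). The member values did not overlap between the groups in 68 cases (17.2%), against 23.0% of all genes tested. They were higher in 28 members (7.07% against 10.4%) and lower in 40 (10.1% against 12.6%). The negative binomial fit to recovered reads called 13 members (3.28%, against 4.35% of all genes), 3 of them higher (0.758% against 1.51%) and 10 lower (2.53% against 2.83%). Limma-voom with sample quality weights called 4 members, 445, 458, 95 and 442 (1.01%, against 1.58%), and limma-voom without weights called 0. Over all alternatives the adjusted p of the 13 members lay between 0.00144 and 0.707.

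The counts of higher and lower members depended on the scale. The median log2 difference of the members was -0.05 and that of all genes tested 0.00 on the deposited FPKM. Setting each dog to a common sum of FPKM moved the median of all genes to 0.126 and that of the members to 0.08. On that scale 44 members were higher and 25 lower at an unadjusted p under 0.05 (6.67% and 2.68% of all genes), and the groups did not overlap for 35 higher and 19 lower members (10.6% and 3.15% of all genes). On both scales the median of the members was below that of all genes, but without control replicate 1, CPP-Se replicate 2 or CPP-Se replicate 3 it was above, at 0.01, 0.04 and 0.03 against -0.005, 0.019 and -0.015. The differences below are on the deposited scale unless stated. For the genes whose log2 difference is given below, the sign was the same on both other scales tried.

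**Figure D3:**
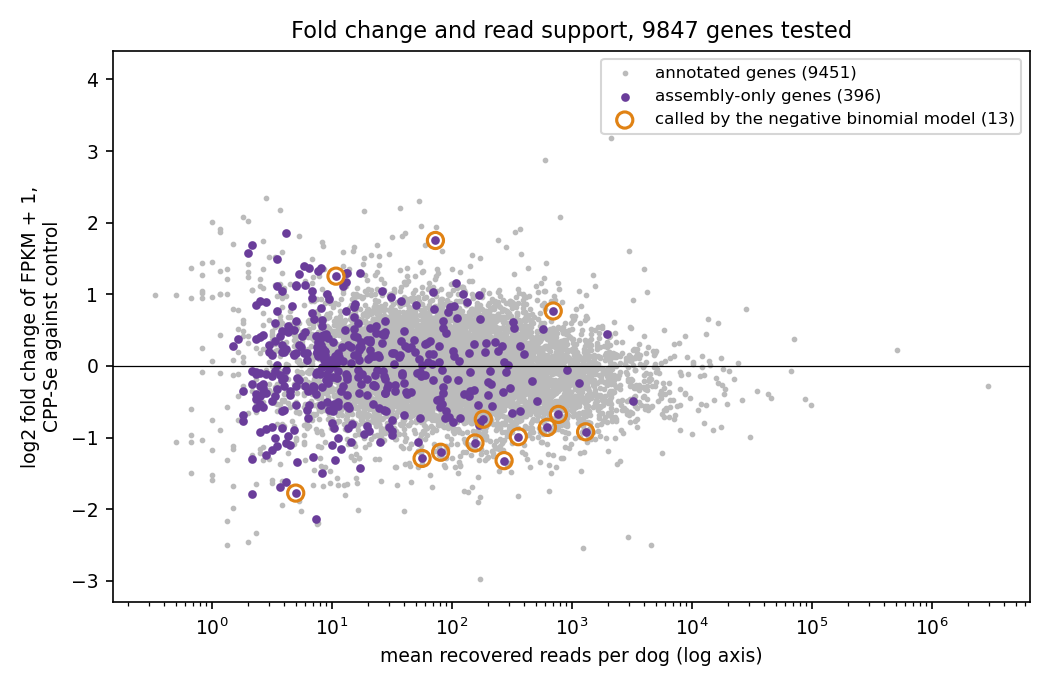
Log2 fold change of FPKM + 1 (CPP-Se against control) against mean recovered reads per dog on a log axis, for 9451 annotated genes in grey and 396 members in purple, with rings on the 13 members that the negative binomial model called. Members crowd to the left, at low reads, and all but 2 of the ringed members have means above 50 reads.

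Of the 10 lower members that the negative binomial model called, 8 had no description. Assembly gene 52 (chromosome 10, 23045722 to 23047330, minus strand, a single block of 1609 bases) measured 126, 120 and 152 FPKM in control dogs and 69.8, 94.3 and 50.6 FPKM in CPP-Se dogs. Every CPP-Se dog was below every control dog. The log2 difference was -0.92 ± 0.26, with an adjusted p of 0.184 in limma and 0.0414 in the negative binomial model. It lies 156 bases downstream of NFAM1, an ITAM-bearing immune receptor, on the other strand. NFAM1 itself measured 172, 164 and 213 FPKM against 95.5, 136 and 90.2 FPKM, again without overlap, a log2 difference of -0.78 ± 0.23. Without strand-specific counting being stated, reads from the end of a gene and from an opposite-strand model beside it cannot be told apart.

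A like arrangement held for assembly gene 447 (chromosome 6, 42516846 to 42521364, a single block of 4519 bases), 105 bases downstream of SORT1 and opposite to it. SORT1 encodes sortilin, a receptor that sorts cargo to lysosomes. The member measured 27.8, 24.6 and 29.5 FPKM against 17, 18.2 and 14.9 FPKM, and the gene 56.3, 37.7 and 50.2 FPKM against 26.9, 29.8 and 23.1 FPKM. Neither overlapped between groups, with log2 differences of -0.68 ± 0.17 and -0.82 ± 0.21. The negative binomial model called both, at adjusted p of 0.0111 and 0.0175, and limma neither, at 0.171 for each.

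DENND3, which activates the small GTPase Rab12, gave its name to another lower member. Assembly gene 95 (chromosome 13, 35652451 to 35680206, plus strand) carried its name and a DENN domain, and lies 5622 bases upstream of the annotated DENND3 model on the same strand. The member measured 36.3, 27.7 and 35.9 FPKM in control dogs and 14.9, 22.1 and 17.1 FPKM in CPP-Se dogs. Annotated DENND3 measured 53.7, 51.5 and 62.0 FPKM against 24.5, 34.2 and 22.7 FPKM. Member and gene were both below all control values in every CPP-Se dog, by -0.86 ± 0.21 and -1.03 ± 0.21 on the log2 scale. The adjusted p of the member was 0.162 in limma and 0.0141 in the negative binomial model, and that of the gene 0.138 and 0.00349.

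Other lower members had no name of their own. Assembly gene 458 (chromosome 7, 6547593 to 6551709) measured 50.2, 41.9 and 39.9 FPKM against 18.5, 21.2 and 25.7 FPKM, a log2 difference of -0.99 ± 0.20 with adjusted p of 0.138 in limma and 0.00144 in the negative binomial model. The nearest annotated gene, 5528 bases away, carried the name of membrane cofactor protein, a regulator of complement and was at 0.246 FPKM, far below the member. Assembly gene 103 (chromosome 13, 38147717 to 38148995) measured 54.1, 33.3 and 34.0 FPKM against 17.5, 20.7 and 16.7 FPKM (-1.07 ± 0.23). It lies 2153 bases upstream of ZNF250, a zinc finger protein, whose own values were 15.4, 12.9 and 14.5 FPKM against 7.30, 6.32 and 8.62 FPKM (-0.87 ± 0.18). Assembly gene 94 (chromosome 13, 28330234 to 28336915), 25277 bases from any annotated gene, measured 15.9, 7.33 and 23.9 FPKM against 5.90, 4.49 and 4.94 FPKM (-1.32 ± 0.37). All 3 members were lower in every CPP-Se dog, and none passed limma's adjusted threshold. The negative binomial adjusted p was 0.00838 for assembly gene 103 and 0.00416 for assembly gene 94.

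Assembly gene 9 (chromosome 1, 108634812 to 108640918) lies 706 bases upstream of DHX34, a helicase of nonsense-mediated decay, on the other strand. It measured 4.90, 2.64 and 6.16 FPKM against 2.12, 1.12 and 0.904 FPKM, and DHX34 measured 45.0, 31.5 and 47.1 FPKM against 17.6, 22.5 and 14.0 FPKM. Their log2 differences were -1.20 ± 0.32 and -1.15 ± 0.24. Both had groups that did not overlap, with negative binomial adjusted p of 0.00766 and 0.00116, and 0.176 and 0.138 in limma. Assembly gene 442 (chromosome 6, 25948928 to 25956029, a single block of 7102 bases) matched ITPRIPL2, a relative of an inositol trisphosphate receptor-binding protein that no annotated gene in the file is named for. It measured 4.46, 4.26 and 4.43 FPKM against 2.22, 2.72 and 1.77 FPKM (-0.74 ± 0.19), with the control dogs close together and all above the CPP-Se dogs. Its adjusted p was 0.171 in limma and 0.010 in the negative binomial model.

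Some calls of the count model rested on few reads or on 1 dog. Assembly gene 232 (chromosome 22, 58879033 to 58880986) measured 6.0, 15.6 and 2.28 FPKM in control dogs and 2.00, 1.56 and 2.40 FPKM in CPP-Se dogs. The groups overlapped, and the log2 difference of -1.29 ± 0.52 became -0.69 without control replicate 2 and -2.01 in the negative binomial model. Assembly gene 337 (chromosome 3, 42093355 to 42093878) had 9, 13 and 7 reads in control dogs and 0, 1 and 0 in CPP-Se dogs. Scaled to library size, the control rate was 35.3 times the CPP-Se rate, with a 95% exact interval of 5.85 to 1440 that covers counting error only. It reached the selection limit only through the control group, where it was high, so the choice favoured this direction. It lies within 2967 bases of IGF1R, the receptor of insulin-like growth factor, which averaged 0.762 FPKM. Leaving out CPP-Se replicate 2 gave the single call made by limma in any omission of 1 dog. It was assembly gene 497 (chromosome 9, 10341566 to 10347858), with 12, 8 and 16 reads in control dogs and 0, 8 and 0 in CPP-Se dogs, likewise selected through the control group and named here after its values were seen.

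Of the members with at least 10 reads per dog whose groups did not overlap, 3 more were among the 6 with the most negative log2 difference. Assembly gene 350 on chromosome 30 had 19, 16 and 11 reads against 0, 15 and 3. Assembly gene 361 on chromosome 32, 106 bases upstream of PPP3CA, had 17, 14 and 15 reads against 11, 14 and 1. PPP3CA encodes a catalytic subunit of calcineurin and measured 9.50, 6.88 and 9.13 FPKM against 6.32, 4.79 and 5.78 FPKM. Assembly gene 61 on chromosome 10 had 11, 11 and 27 reads against 3, 4 and 4. The read counts of assembly genes 350 and 361 show the groups apart only once scaled to each dog's depth, with log2 differences of -1.32 ± 0.39 and -1.16 ± 0.47. Over the fits tried the difference reached -2.99 for assembly gene 350 and -2.32 for assembly gene 61, which was -1.10 in limma. Without CPP-Se replicate 3, the dog with 1 read, the difference of assembly gene 361 was -0.57. Assembly genes 350 and 61 had a CPP-Se mean under 1 FPKM and were selected through the control group. None of the 3 was called by any fit listed here.

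**Figure D4:**
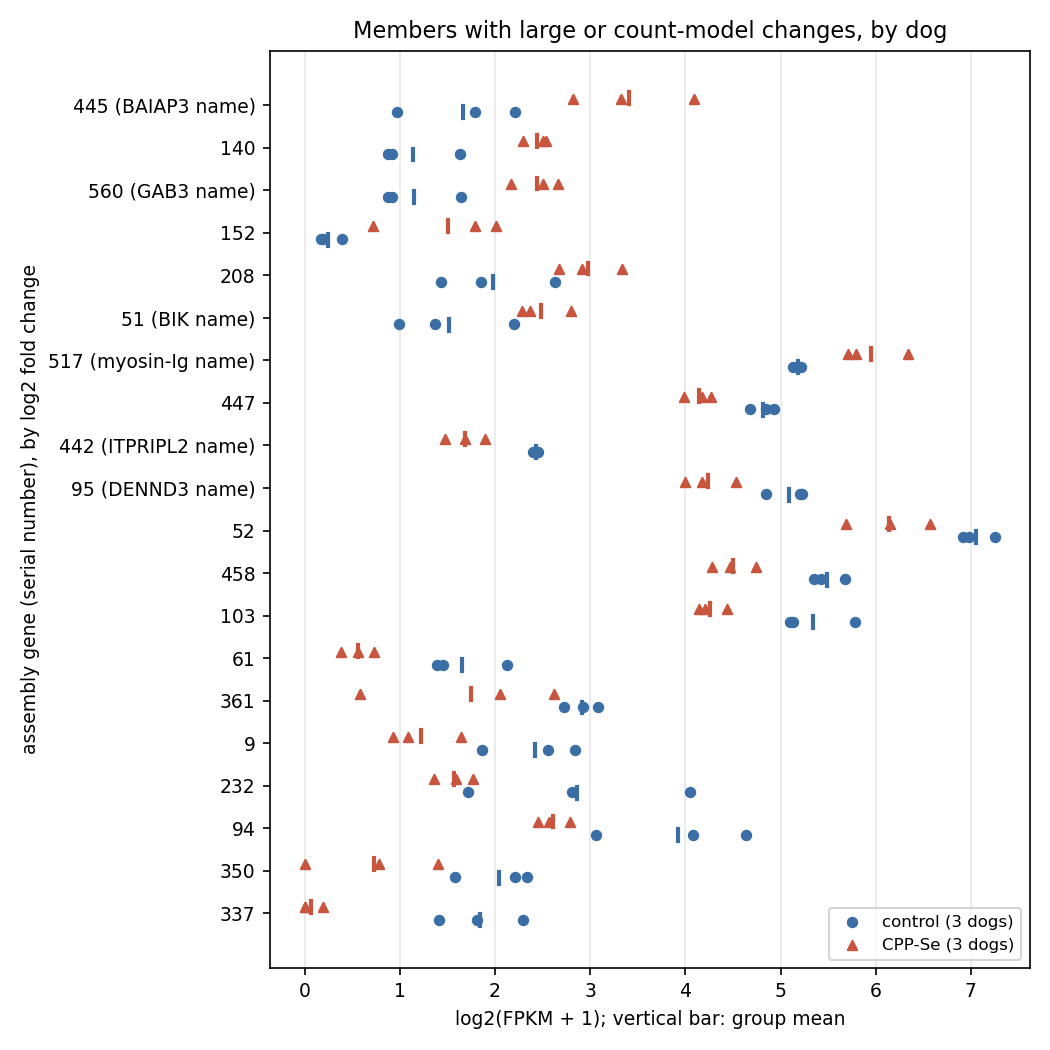
Log2(FPKM + 1) of the 20 members that the negative binomial model called or that had the largest differences among members with non-overlapping groups and at least 10 reads, 1 point per dog, circles for control and triangles for CPP-Se, bars at group means. Assembly gene 232 is the only one of the 20 whose groups overlap.

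On the higher side, among members with at least 10 reads per dog and no overlap between groups, the largest difference was in a model named for a vesicle protein. Assembly gene 445 (chromosome 6, 39424114 to 39427146, minus strand) matched BAIAP3, a C2-domain protein of dense-core vesicle traffic. It measured 2.47, 3.63 and 0.960 FPKM in control dogs and 16.0, 9.0 and 6.08 FPKM in CPP-Se dogs. Annotated BAIAP3, 373 bases upstream on the same strand, measured 0.638, 2.30 and 0.739 FPKM against 6.06, 3.68 and 3.36 FPKM. All CPP-Se dogs exceeded all control dogs for both, with log2 differences of 1.75 ± 0.40 for the member and 1.31 ± 0.33 for the gene, the latter 2.35 with sample quality weights. Adjusted p was 0.146 and 0.171 in limma and 0.0021 and 0.0129 in the negative binomial model. The member had the higher level in 6 of 6 dogs.

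Assembly gene 517 (an unplaced scaffold, 11 to 6958, minus strand) was the best-covered of the higher members that the negative binomial model called. It matched unconventional myosin Ig, a class I myosin of blood cells, with a myosin motor domain. It measured 36.0, 34.0 and 35.7 FPKM in control dogs and 79.8, 54.4 and 51.5 FPKM in CPP-Se dogs, from 396 to 1324 reads per dog. The control dogs lay within 3 FPKM of each other, below every CPP-Se dog. The log2 difference was 0.77 ± 0.21, with an adjusted p of 0.183 in limma and 0.0267 in the negative binomial model. An unnamed annotated gene 2915 bases from it on that scaffold measured 5.55, 6.23 and 5.06 FPKM against 20.2, 12.1 and 6.34 FPKM. T, B and cytotoxic cell markers were higher in the same dogs, and neutrophil and monocyte markers lower, as given above. Their part in this and the other differences was not tested.

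Assembly gene 152 (chromosome 17, 7122942 to 7124090) had 1, 2 and 1 reads in control dogs and 16, 41 and 4 in CPP-Se dogs. It ends 2 bases from RRM2, a subunit of ribonucleotide reductase, on the opposite strand. RRM2 measured 6.01, 5.27 and 5.30 FPKM against 4.76, 7.79 and 5.30 FPKM, so the gene's groups overlapped where those of the member did not. The log2 difference of the member was 1.25 ± 0.38, with an adjusted p of 0.199 in limma and 0.0248 in the negative binomial model. On the model's own scale, without the added 1 FPKM, the log2 difference was 3.47. Its control mean was under 1 FPKM, so it was selected through the group where it was high, and the choice favoured this direction.

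Assembly gene 208 (chromosome 20, 55819857 to 55824200) lies 209 bases upstream of TBXA2R, the thromboxane A2 receptor of platelets and other cells, on the same strand. It measured 2.62, 5.20 and 1.70 FPKM against 9.09, 6.51 and 5.37 FPKM, and TBXA2R measured 15, 23.4 and 11.9 FPKM against 63.4, 36.9 and 64.9 FPKM. Both were higher in every CPP-Se dog, with log2 differences of 1.00 ± 0.33 and 1.66 ± 0.31. The gene was called by the negative binomial model, at an adjusted p of 0.000218, and the member was not, at 0.0842. Platelet marker sums overlapped between the groups, at 489 to 1130 FPKM in control and 367 to 1390 FPKM in CPP-Se dogs. These sums rest on the 2 of 4 listed markers that were found, ITGA2B and PPBP, 1 higher and 1 lower. The part of platelets was not tested.

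The remaining large differences were GAB3, BIK and an undescribed model. Assembly gene 560 (chromosome X, 122779300 to 122822680), 156 bases upstream of GAB3, a docking protein of cytokine signaling, carried that name. It measured 0.831, 0.889 and 2.12 FPKM against 5.32, 4.68 and 3.48 FPKM, while annotated GAB3 measured 0.547, 0.546 and 1.18 FPKM against 0.622, 1.38 and 1.59 FPKM. The member's groups were apart (1.3 ± 0.27, and 2.08 with sample quality weights) and those of the gene overlapped. Assembly gene 51 on chromosome 10 matched BIK, a BH3-only inducer of apoptosis, and measured 0.992, 3.58 and 1.58 FPKM against 5.95, 3.87 and 4.15 FPKM (0.96 ± 0.33, and 1.67 with sample quality weights). Assembly gene 140 on chromosome 17 had 8, 3 and 4 reads against 14, 36 and 16 (1.3 ± 0.26). None of the 3 reached an adjusted p of 0.05 in limma or in the negative binomial model.

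One member bears on the supplement by name. Assembly gene 175 (chromosome 18, 38478790 to 38480392, minus strand) matched selenoprotein H, a nuclear selenoprotein with a redox fold, and no annotated gene in the file has that name. It was picked out after its values were seen. The control dogs had 11.3, 8.53 and 12.6 FPKM and the CPP-Se dogs 20.1, 21.7 and 15 FPKM, from 41 to 218 reads. Every CPP-Se dog was above every control dog, by 0.76 ± 0.22 on the log2 scale, but the adjusted p was 0.188 in limma and 0.0993 at the lowest over the fits tried, so it was not called.

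By description, no group held a member called by limma. Counts at an unadjusted p under 0.05 are to be read beside 6.87% higher and 9.10% lower over all genes tested. All 6 cytoskeleton and motor members, 3 of them the neighbouring obscurin models, had a positive log2 difference (median 0.84), 3 at an unadjusted p under 0.05. The 3 were assembly gene 517 and the obscurin models 113 and 114, of which 114 was named after its values were seen and was selected through the CPP-Se group, its control mean being under 1 FPKM. KIF21B, a kinesin, was matched by assembly gene 451, which measured 0.0726, 1.71 and 2.77 FPKM against 3.64, 2.64 and 3.32 FPKM with overlap. Of 17 signaling members, 5 were higher and 2 lower at an unadjusted p under 0.05 (median 0.35), and 3 of the 17 were the obscurin models again. Of the 5 higher, assembly genes 114 and 534, both named after their values were seen, had a control mean under 1 FPKM. In the signaling group, assembly gene 53, matched to the endosomal adaptor sesquipedalian-2, measured 13.5, 12.4 and 12.1 FPKM against 27.7, 21.1 and 10.8 FPKM. Assembly gene 149, matched to the mitochondrial nucleotide kinase CMPK2, measured 13, 11.5 and 10.7 FPKM against 8.38, 9.52 and 17.1 FPKM. In both, CPP-Se replicate 3 broke the order set by the other 2 CPP-Se dogs.

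Immune receptor and immunoglobulin words picked 10 members, of which 2 were higher at an unadjusted p under 0.05. These 2 were the myosin Ig and BIK models, caught by the letters of their names and not by an immune function, while the 7 lambda members and a CEACAM-like model gave none. The 6 mobile element members had a median log2 difference of 0.43, with 2 higher at an unadjusted p under 0.05, assembly genes 378 and 292. The latter, named after its values were seen, had a control mean under 1 FPKM. Assembly gene 378, matched to a retroviral Pol polyprotein, measured 1.85, 1.91 and 2.18 FPKM against 3.19, 2.75 and 3.37 FPKM, without overlap. Assembly gene 139, matched to a LINE element reading frame, measured 7.74, 4.86 and 4.86 FPKM against 3.41, 5.08 and 1.31 FPKM, and assembly gene 327, of the same match, averaged 3.13 FPKM. Outside these 6, a retroviral envelope name was given to assembly gene 38, at 12.7, 23.6 and 10.7 FPKM against 14.9, 10.5 and 29.3 FPKM. Assembly gene 354 carried the same envelope name, also outside the 6. The mean log2 level was higher in the CPP-Se group for assembly gene 38 and lower for assembly gene 354. Copies of such elements are near identical, so their counts are uncertain. The words for cytokine and interferon, zinc finger, transporter and globin each picked 1 member, all with an unadjusted p over 0.05. The member picked by the globin word was assembly gene 527, a nitrogen permease regulator model and no globin.

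The 285 without a description had a median log2 difference of -0.11, with 17 higher and 37 lower at an unadjusted p under 0.05, beside 6.87% and 9.10% over all genes tested. The 69 described members outside every word group had 0.16, with 8 higher and 4 lower. Such balances are those of the deposited scale, and over all members a common sum of FPKM turned 34 higher and 43 lower into 44 and 25. On position, the 47 members upstream of a same-strand gene had a median of -0.26 and the 38 downstream of one 0.24. Single-block members had -0.18 and spliced ones 0.03. These medians stand beside -0.05 for all members and are not tests.

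Several abundant members had no protein name. Assembly gene 496 (chromosome 9, 9179667 to 9182490), a single block of 2824 bases, lies 71 bases past the end of ITGB3, the beta-3 integrin of platelets, on the other strand. It measured 142, 126 and 254 FPKM against 103, 60.9 and 262 FPKM, and ITGB3 measured 122, 108 and 206 FPKM against 75.0, 53.5 and 165 FPKM. Both ranked the dogs of each group in the same order, with replicate 3 the highest in either group, as the platelet marker sums did. Assembly gene 304 on chromosome 28 measured 535, 553 and 295 FPKM against 471, 217 and 524 FPKM, 7134 bases from an unnamed gene at 7.93 FPKM. Assembly gene 303 on the same chromosome averaged 62.6 FPKM, 18985 bases from ZFAND4.

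Assembly gene 374 (chromosome 34, 34556695 to 34557874) lies 134 bases upstream of a gene with the name of SEC62, a translocation protein of the endoplasmic reticulum. It measured 111, 45.9 and 49.8 FPKM against 73.6, 10.8 and 75.5 FPKM, lowest in CPP-Se replicate 2. Assembly gene 227 on chromosome 22, 2523 bases downstream of RAP2A, a small GTPase, measured 43.8, 47.1 and 70.6 FPKM against 41.0, 22.9 and 70.9 FPKM. CPP-Se replicate 2 was again the lowest dog. The library with the least hemoglobin was thus low in both, and its part was not tested.

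The log2 difference of each member was set beside that of its nearest annotated gene. Among 109 members with at least 10 reads and an annotated gene of at least 1 FPKM within 5000 bases, Pearson's r of the log2 differences was 0.544 across genes, and 72 (66.1%) had the same sign. By position r was 0.757 for 18 members upstream on the same strand, 0.505 for 20 downstream on the same strand, 0.613 for 22 downstream on the opposite strand and 0.361 for 49 upstream on the opposite strand. For 36 members over 5000 bases from the nearest gene r was 0.336, and 26 (72.2%) had the same sign. Pooled over positions, sign agreement was thus no higher beside a gene. By position it was 83.3% upstream and 65.0% downstream on the same strand, and 55.1% upstream and 77.3% downstream on the opposite strand. All pairs share the same 6 libraries and the same scaling, and genes are not independent replicates, so these values are a description. With thinly covered members included, r was 0.312 for the 173 pairs within 5000 bases, 59.5% of them of the same sign, and 0.329 for the 62 pairs farther apart, 71.0% of the same sign.

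**Figure D5:**
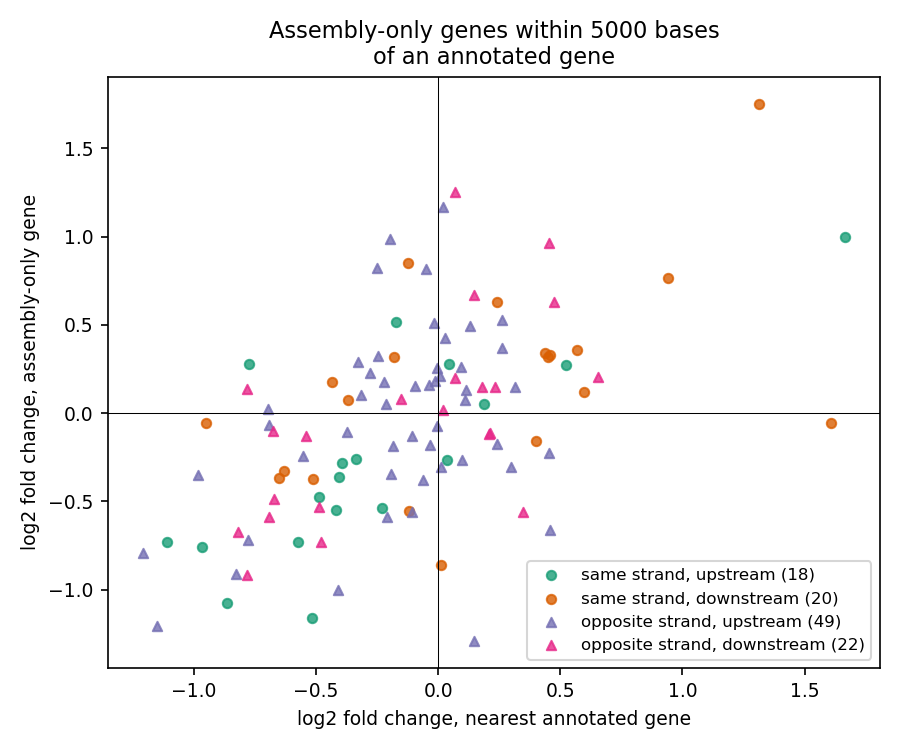
Log2 fold change of the nearest annotated gene (horizontal) and of the member (vertical) for 109 members with at least 10 reads within 5000 bases of an annotated gene of at least 1 FPKM, by strand and side. Points near BAIAP3, at 1.31 and 1.75, and near DHX34, at -1.15 and -1.20, mark the 2 ends of the diagonal.

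Of the 232 members with a mean of at least 10 reads, 223 were above 0 in all dogs. In the others the ratio between dogs has no upper bound, and 5 of them were taken in order of listing, not by rank. Of the 5, assembly gene 350 is given above, and the groups of the other 4 overlapped. Assembly gene 538, on an unplaced scaffold and matched to a mannosidase of the endoplasmic reticulum, had 72 reads in CPP-Se replicate 1 and 0 to 3 in each other dog. Assembly gene 504 on chromosome 9, 2835 bases from ACTG1, had 48 reads in CPP-Se replicate 3, 22 in replicate 2 and 0 in replicate 1, against 6, 0 and 2 in control dogs. Assembly gene 180 on chromosome 18, beside the phosphatase gene SSH3, had 0 reads in control replicate 3 and 36 to 90 in the others. Assembly gene 151 on chromosome 17 had 30, 10 and 0 reads against 0, 63 and 22. In each of the 4 members, dogs of one diet differed by more than the group means did.

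As a whole the members held a small share of blood RNA. Their share of reads was 0.391% ± 0.0421 (SD, n = 3) in the control group and 0.402% ± 0.0752 in the CPP-Se group, and 2 single omissions turned the direction of that difference. It was 0.359% in the CPP-Se group without replicate 2, and 0.412% in the control group without replicate 2. An exact two-sided permutation test gave p = 0.8, where 3 against 3 dogs cannot give less than 0.1. With hemoglobin left out of the denominator the share was 0.785% ± 0.0566 and 0.793% ± 0.0266 (exact permutation p = 0.8). As a share of all summed FPKM it was 0.82%, 0.734% and 0.792% in control dogs and 0.843%, 0.995% and 0.766% in CPP-Se dogs, which overlapped (exact permutation p = 0.4). As a share of summed FPKM without hemoglobin it was 1.24%, 1.19% and 1.22% in control dogs and 1.40%, 1.33% and 1.28% in CPP-Se dogs. Those values did not overlap, and the exact permutation p was 0.1, the smallest this design allows.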

How the data were processed

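RNA from whole blood of 3 control and 3 CPP-Se dogs was sequenced by the authors as 1 oligo(dT)-selected library per dog. Per the authors' methods and the submitters' processing notes, reads were aligned with HISAT2 2.0.5 to the Ensembl release 100 dog genome, assembled with StringTie and counted with featureCounts 1.5.0-p3. The authors deposited FPKM per gene. The strand setting and the treatment of shared reads are not given in the sources used here.

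From the deposited FPKM and gene lengths, whole reads were recovered (100% of values within 0.01 of a whole number in each library). They summed to 6598173 to 8067034 reads on genes, and the FPKM scale implied library sizes of 6119445 to 13336023. Genes whose mean reached 1 FPKM were tested with limma 3.58.1 in R 4.3.3 (eBayes with trend) on log2(FPKM + 1), which understates changes of low genes, with Benjamini-Hochberg adjustment over all 9847. Calls needed an adjusted p under 0.05 and a fold of at least 1.5. Alternatives were another pseudocount, filter, scaling or variance model, limma-voom, a negative binomial fit to recovered reads, written for this work (dispersion shrunk to a trend, Wald test), a replicate block and each dog left out. Code was tested on simulated data. Shares were compared by exact permutation with scipy. No sequence is shown.

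Members, lists and tests were chosen with earlier results of these data known. Named members were the 10 highest, the 6 largest log2 differences each way among members with at least 10 reads and no overlap between groups, all called by limma or the negative binomial model, the 3 highest of each description group, the 5 highest beside and the 5 highest away from an annotated gene, and the 5 with the widest ratio between dogs. Others are said to have been picked after their values were seen. Assembly-only rows have no symbol, and the word groups are searches of the description column. Some items are not reported here.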

Additional observations from a re-analysis of the deposited data

How the results depend on the processing

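The count of members called was 0 with pseudocount 0.1, with filters of 0.5 FPKM, none, or 1 FPKM and 10 reads, on both other scalings, without the trend, with robust variances, under the replicate block and with limma-voom. It was 4 with sample quality weights (1 higher, 3 lower) and 13 with the negative binomial model (3 higher, 10 lower), and 0 to 1 with single dogs left out (0 higher, 0 to 1 lower). The replicate numbers do not pair the dogs: same-numbered dogs' deviations correlated at 0.0165, -0.09 and -0.0433, and the replicate block gave 79 members at an unadjusted p under 0.05, against 77. Single omissions gave 56 to 79 such members (24 to 38 higher, 32 to 42 lower). The filter on reads gave 48 (19 higher), since fewer members were tested, and the common sum of FPKM 25 lower, with 19 non-overlapping lower members. The median log2 difference was 0.08 on that scale and -0.09 to 0.04 with single dogs left out. The share of reads differed by 0.0117 percentage points, by -0.0102 without control replicate 2 and -0.0317 without CPP-Se replicate 2 (range -0.0317 to 0.0353), and the share of summed FPKM by 0.0225 to 0.137. Within 1000 bases of an annotated gene lay 144 members. The causes were not tested. Depth limits 164 members, with under 10 reads per dog, to large differences. With 3 dogs a group, a missed threshold does not show that levels were equal.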
